A study of Canis lupus familiaris with 6 samples.

Results

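RAB proteins are small GTPases of the Ras superfamily that mark the membranes of the secretory and endocytic pathways. A RAB is carried to its membrane by an escort protein and prenylated, is switched on by an exchange factor that loads GTP, recruits effectors such as tethers and motors while it is on, and is switched off by a GTPase-activating protein. In polarised epithelial cells RAB5 governs fusion of early endosomes, RAB7 the step to late endosomes and lysosomes, and RAB11 with RAB25 the return of cargo through the apical recycling endosome. The members described here are the array probes whose gene name in the scanner file begins with RAB followed by a digit, which gave 53 of the gene names on the array, read by 89 of its 43603 non-control probes. Of the 53 names, 46 belong to RAB GTPases and 7 to proteins named after the RAB that they bind, activate or switch off.

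The cells were MDCK, a canine kidney epithelial line, carrying a truncated, stable β-catenin (mCherry-β-catenin Δ131) that is made constitutively and the oncogene GFP-RasV12 in a pTR vector, made only when tetracycline is given. These β-cat ΔN/RasV12 cells were grown either alone (single culture, n = 3) or among MDCK cells that had the same mCherry-β-catenin Δ131 but no RasV12, at 10 such neighbours to 1 RasV12 cell (mix culture, n = 3). Both cultures stood on collagen-coated dishes and received tetracycline during 24 h. Cells with GFP were then sorted, and their total RNA was hybridised in 1 colour to canine arrays. The comparison asks what the surrounding β-cat ΔN cells change in β-cat ΔN/RasV12 cells, and truncated β-catenin and induced RasV12 are common to both groups, so neither is tested by it. Nothing in the labels says that the 3 arrays of a group came from separate cultures or clones, so the p-values below measure the spread between these arrays, which may be technical, and their number limits the precision.

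Most RAB genes were detected in both cultures, and the median change of their probes between β-cat ΔN/RasV12 cells alone and among β-cat ΔN cells was -0.01 on the log2 scale. Among the 53 genes, 44 had a probe well above background on all 6 arrays, 6 had none on any array and 3 were above background on some arrays of 1 group. No RAB gene tested differed by as much as 2-fold in the means, and none passed the threshold in the fit without a block. When the slide was taken into the fit, 4 of the 44 genes (9.09%) passed at the brightest probe, against 7.25% of all gene names. RAB11A, RAB31 and RAB11FIP4 were lower in mix culture and RAB3IP, an exchange factor for RAB8, was higher.

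The arrays lay on 2 slides. Slide 1 held replicate 1 of each group and slide 2 held replicates 2 and 3 of each, with another scan resolution and software version, and 47.2% of the 26623 probes tested differed between the slides at an adjusted p under 0.05 in limma. Among the RAB probes 30 of 77 (39.0%) differed so, with a median size of 0.27 on the log2 scale against 0.35 for all probes. The slide is therefore given as a block beside each result that it touches. The cells carried epithelial markers throughout. All 9 epithelial markers on the array were above background on all 6 arrays, with a summed processed signal of 115000 to 145000 in single culture and 105000 to 120000 in mix culture. CDH1 and CLDN4 were called lower in mix culture with the slide block (limma adjusted p = 0.0444 and 0.0136) but not without it (0.384 and 0.674). These were 2 of the 9 (22.2%), against 7.25% of all gene names called with that block. In the means 8 of the 9 were lower in mix culture, against 59.7% of all gene names. Of 6 leukocyte markers, PTPRC and LYZ were above background on no array and the list summed to 222 to 330 in single and 212 to 340 in mix culture. DCN and PDGFRA of the fibroblast list and TEK of the endothelial list were likewise above background on no array. The fibroblast list, 6 markers of which 2 were above background on all arrays, summed to 138 to 374 in single and 122 to 342 in mix culture, and the endothelial list, 5 markers of which 3 were, to 918 to 2890 and 844 to 3350. In RNA of a sorted population, fewer cells of a type and less RNA per cell cannot be told apart, and the part of the marker shifts in the results below was not tested.

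The probes are 60 bases long, and each is given under the member that its gene name states. The G5 box, a short stretch that contacts the guanine base and is shared by Ras-like GTPases, lay in an open reading frame of 6 RAB probes. It is printed in capitals for RAB31, one of the members that fell with the slide block, and for RAB10, RAB9A and RAB15, so that the shared and the gene-specific bases can be seen side by side.
RAB31: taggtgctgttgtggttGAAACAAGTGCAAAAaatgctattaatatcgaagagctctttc
RAB9A: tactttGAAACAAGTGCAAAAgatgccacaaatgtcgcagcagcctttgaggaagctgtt
RAB10: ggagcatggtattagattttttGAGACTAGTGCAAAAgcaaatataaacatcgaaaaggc
RAB15: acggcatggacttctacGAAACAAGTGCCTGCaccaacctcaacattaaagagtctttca

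The P-loop, which holds the phosphates of the nucleotide, is in capitals in a RAB7A probe at chr20:2755519-2757256, a span that crosses an intron.
RAB7A: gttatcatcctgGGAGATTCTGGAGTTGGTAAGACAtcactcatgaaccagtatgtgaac

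RAB5A and RAB5C share their role in early endosome fusion, and a probe of each is shown to let their letters be compared. The bases that match are in capitals, 27 of 42 overlapping ones (64.3%). Whether a probe also takes up RNA of a paralogue was not tested.
RAB5C: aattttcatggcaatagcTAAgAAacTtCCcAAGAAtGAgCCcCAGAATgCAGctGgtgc
RAB5A: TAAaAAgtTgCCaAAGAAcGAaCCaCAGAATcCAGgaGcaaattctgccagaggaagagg

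For the members called with the slide block, probes with an open reading frame are shown whole, here or, for RAB31, above. The frames were not compared with the protein. The brighter RAB11FIP4 probe, which had the smaller adjusted p in limma, is not shown. RAB11A lies on chromosome 30 and its probes at chr30:30218086-30218145 and chr30:30207971-30208946. The RAB3IP probe lies at chr10:11711511-11711657, the RAB31 probe at chr7:75791546-75791605 and the dimmer RAB11FIP4 probe at chr9:41342295-41342354 on the minus strand. All are in CanFam3.1 coordinates. The first 3 of these genes are on the plus strand.
RAB11A, brighter probe: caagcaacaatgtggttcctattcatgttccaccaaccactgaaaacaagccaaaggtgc
RAB11A, dimmer probe: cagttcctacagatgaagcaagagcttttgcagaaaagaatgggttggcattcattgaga
RAB11FIP4, dimmer probe: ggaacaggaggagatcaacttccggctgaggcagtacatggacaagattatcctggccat
RAB3IP: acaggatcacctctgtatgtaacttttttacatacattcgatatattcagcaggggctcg

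Of the 89 probes, 77 (86.5%) were well above background on all 6 arrays, against 58.7% of all non-control probes. Of the other 12, 9 were above it on no array and 3 on some. RAB3B, a RAB of regulated secretion, RAB9B and RAB33A, of the late endosome and the Golgi, RAB36, and the little-studied RAB42 and RAB44 were above background on no array. RAB27B, which acts in the docking of secretory vesicles, was above background on 2 of the 3 single culture arrays and on none in mix culture. Its normalised log2 signal was -5.45, -4.67 and -4.61 in single culture and -5.50, -6.07 and -5.68 in mix culture. Without the filter on dim probes its adjusted p was 0.582 in limma. RAB3C was above background on 1 mix array only, and so was 1 probe of RAB38, a RAB of melanosomes and related organelles. No fold is given for these 3 genes, since neither group was above background on all of its arrays. The 3 remaining undetected probes belonged to RAB2A, RAB5A and RAB38, and those of RAB2A and RAB5A lie on the strand opposite to the other probes of their gene.

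The change of each gene was read as the log2 difference between the groups of the normalised signal, which is the log2 processed signal minus that of the 75th percentile of the array. The 77 RAB probes tested had a median change of -0.01, with quartiles at -0.21 and 0.17, against a median of -0.05 and quartiles at -0.20 and 0.13 for all 26623 probes tested. Their median size of change was 0.18 against 0.17. The SD across the RAB probes was 0.28 against 0.41, and the extremes were a rise of 0.77 and a fall of -0.72, while 605 of all probes (2.27%) moved by 2-fold or more. Of the RAB probes 35 were higher and 42 lower in mix culture.

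No RAB probe passed an adjusted p under 0.05 in limma without a block, where 0.883% of all probes did, nor did any of the 44 genes at the brightest probe, against 0.87% of all gene names. The smallest adjusted p was 0.182, for RAB3IP, and 8 RAB probes (10.4%) had an unadjusted p under 0.05, against 8.71% of all probes. The methods' test, run on the same values, also called no RAB probe after Benjamini-Hochberg adjustment. With the slide as a block limma called 6 RAB probes of 77 (7.79%), close to the 7.2% of all probes called. Of these 6, 1 was higher and 5 were lower, where 3.98% of all probes were called higher and 3.22% lower. The 5 lower probes read RAB11A and RAB11FIP4, each at both of its probes, and RAB31, so they do not stand for separate genes. At the brightest probe 4 of 44 genes (9.09%) were called, against 7.25% of all gene names. With the replicate number as a block, 2 RAB probes were called, against 5.25% of all probes. The intervals were narrow enough to bound most members: with the slide block the 95% interval of the change lay inside 2-fold either way for 73 of 77 RAB probes (94.8%, against 93.9% of all probes), and without it for 61 (79.2%, against 78.3%). The 4 probes outside that bound with the block were those of RAB3IP, RAB31 and RAB15 and the brighter probe of RAB5C.

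**Figure D1:**
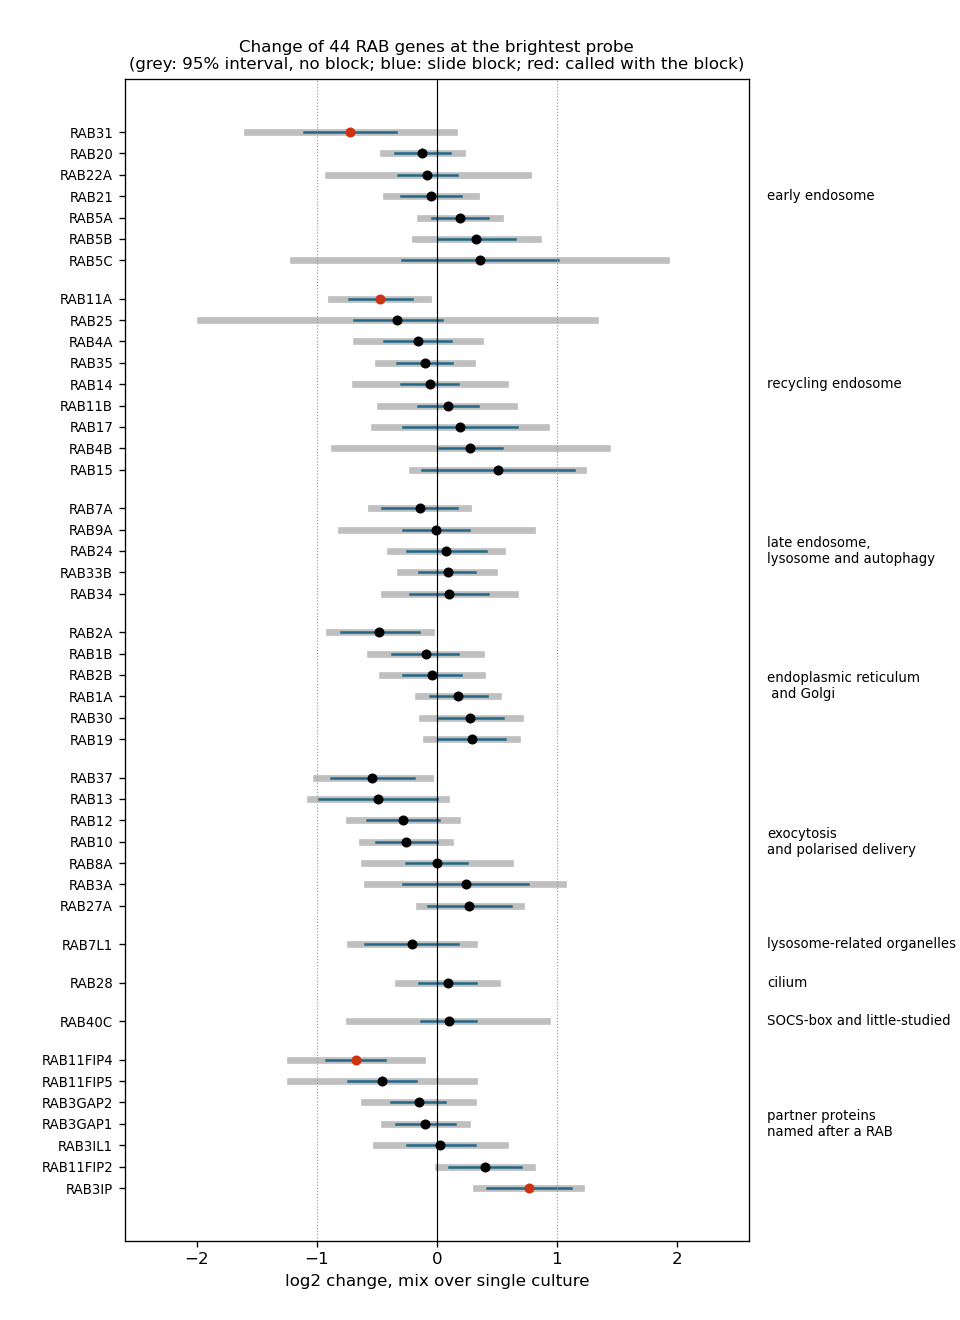
The horizontal axis gives the log2 change of 44 RAB genes, mix over single culture, at the brightest probe of each, with genes grouped by role down the page. Points are estimates, wide grey bars 95% intervals without a block, thin blue bars 95% intervals with the slide as a block, and red points the 4 genes called with the block, RAB31, RAB11A, RAB11FIP4 and RAB3IP. Every estimate lies inside the dotted lines that mark 2-fold.

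The 7 early endosome genes split into 3 higher and 4 lower, with a median of -0.05 at the brightest probe. RAB31, a relative of RAB5 that works between the trans-Golgi network and endosomes, had normalised log2 signals of 0.33, -1.05 and -0.77 in single culture and -0.89, -1.37 and -1.40 in mix culture. Single culture replicate 1 stood above all other arrays, and the groups overlapped because mix culture replicate 1 on the same slide lay above single culture replicate 2. The change was -0.72 ± 0.37 (SE, n = 3 per group, limma adjusted p = 0.693) without a block, -1.22 on slide 1 and -0.48 on slide 2, and the fall passed the threshold with the slide block (SE 0.17, limma adjusted p = 0.0411) but not with the replicate block (0.0651). Without a block the change was -0.31 when single culture replicate 1 was left out. A probe outside the naming rule whose description names RAB31, looked up after the values were seen, changed by -0.81 ± 0.28 (limma adjusted p = 0.426 without a block, 0.0128 with the slide block), lower on both slides.

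The RAB5 genes, which drive the fusion of endocytic vesicles with early endosomes, were higher in the mix culture means, and none passed. RAB5A read -1.07, -1.08 and -1.07 in single culture and -0.76, -0.92 and -0.95 in mix culture at its brighter probe, so that all 3 mix arrays lay above all 3 single arrays, with a change of 0.19 ± 0.14 (SE, limma adjusted p = 0.83, 0.262 with the slide block). RAB5B read -0.46, -0.03 and -0.21 against -0.18, 0.02 and 0.46, a change of 0.33 with a 95% interval of -0.18 to 0.84, which was 0.15 without mix culture replicate 3. RAB5C varied widely between arrays. Its brighter probe read 4.15, 2.45 and 2.47 in single culture and 4.44, 2.20 and 3.49 in mix culture, with both slide 1 arrays far above slide 2, and mix culture replicates 2 and 3 differed on 1 slide by more than the groups did. The change of 0.36 had an interval of -1.20 to 1.91, and it turned to -0.18 when mix culture replicate 1 was left out. RAB20, RAB21 and RAB22A, which also act on early endosomes, changed by -0.12, -0.05 and -0.08.

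Of the 9 recycling endosome genes, 4 were higher and 5 lower, with a median of -0.06. RAB11A, the main RAB of the recycling endosome, read 4.67, 4.24 and 4.28 in single culture and 3.98, 3.87 and 3.93 in mix culture at its brighter probe, and 3.04, 2.72 and 2.65 against 2.39, 2.30 and 2.34 at the other. At both probes every mix array lay below every single culture array. Both probes gave a change of -0.47, with an adjusted p in limma of 0.479 and 0.452 without a block, 0.0451 and 0.0428 with the slide block, and 0.0831 and 0.0817 with the replicate block. The difference was -0.69 and -0.66 on slide 1 and -0.36 and -0.37 on slide 2. RAB11B is its close paralogue. Its brighter probe read 1.89, 1.41 and 1.20 against 1.90, 1.44 and 1.43, a change of 0.09 with a 95% interval of -0.16 to 0.34 with the slide block, and the other probe changed by 0.02. The difference between RAB11A and RAB11B was not tested. RAB25, the RAB11 relative of epithelia, read 0.50, 2.03 and 2.09 against -0.27, 2.08 and 1.84. Its 2 slide 1 arrays stood well below the others, and its change of -0.33 had an interval of -1.97 to 1.32 without a block and -0.69 to 0.04 with the slide block. Without mix culture replicate 1 it turned to 0.42. RAB15, which slows transport through early and recycling endosomes, read -4.16, -3.50 and -3.73 against -2.98, -3.90 and -3.00, a rise of 0.51 ± 0.30 that was 1.18 on slide 1 and 0.17 on slide 2 (limma adjusted p = 0.766, 0.274 with the slide block), and was 0.33 when single culture replicate 1 was left out and 0.81 when mix culture replicate 2 was. RAB14, of traffic between the Golgi and endosomes, changed by -0.06 at its brightest probe, and RAB4A, RAB4B, RAB17 and RAB35, all of fast or slow recycling, by -0.16, 0.28, 0.19 and -0.10.

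**Figure D2:**
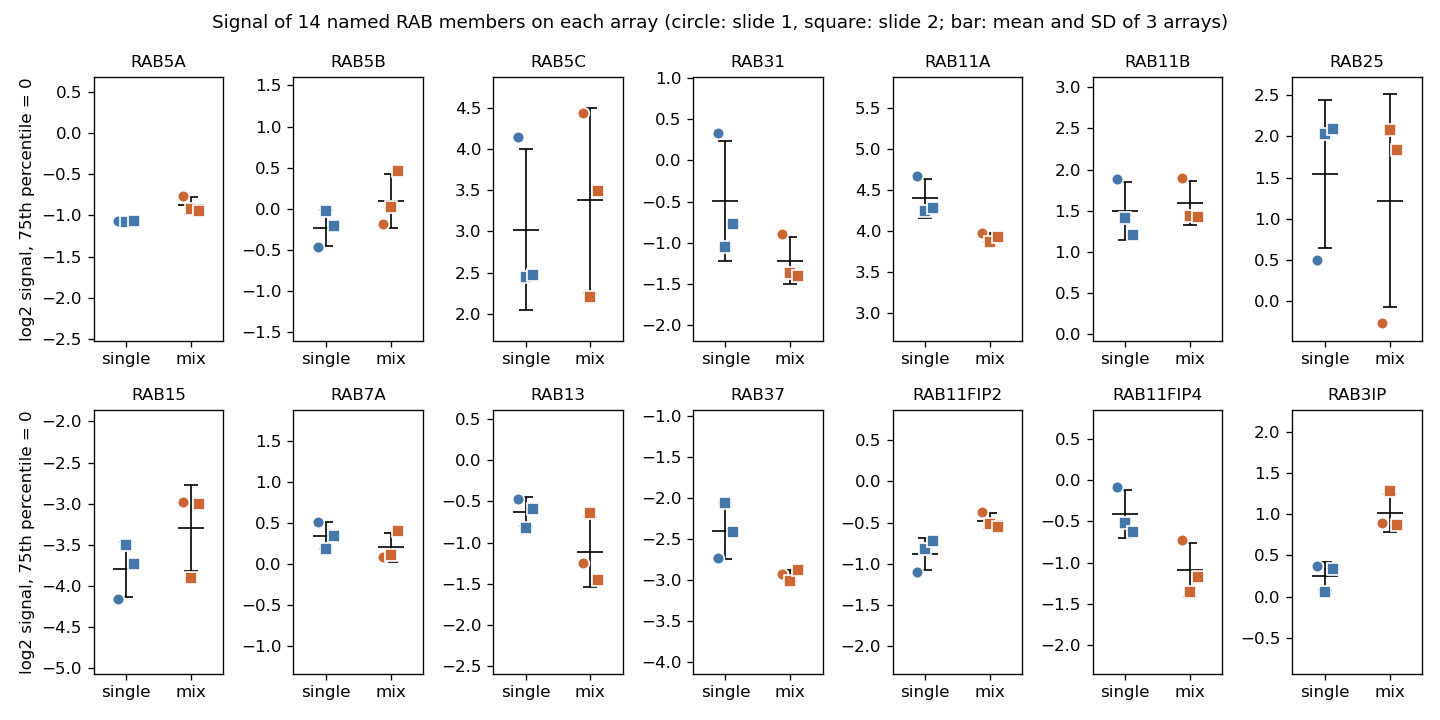
Each panel shows 1 of 14 named members at its brightest probe, with the normalised log2 signal (75th percentile of the array = 0) on the vertical axis over a span of equal height in every panel and the 3 arrays of single and mix culture side by side. Circles are slide 1, squares slide 2, and bars the mean and SD. The groups separate for RAB11A, RAB5A, RAB37, RAB11FIP2, RAB11FIP4 and RAB3IP, and the slides separate for RAB5C, RAB25 and RAB11B.

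Of the 8 late endosome, lysosome and autophagy genes, 5 were tested, and their changes ran from -0.14 to 0.10. RAB7A, which brings late endosomes to lysosomes, read 0.51, 0.18 and 0.34 in single culture and 0.09, 0.11 and 0.40 in mix culture at its brighter probe, a change of -0.14 ± 0.17 with an interval of -0.46 to 0.17 with the slide block. The groups overlapped at both RAB7A probes, and the second probe, whose P-loop bases are printed above, changed by -0.17. RAB24 and RAB33B, both linked to autophagy, changed by 0.08 and 0.09, RAB34 by 0.10, and RAB9A, of the return from late endosomes to the Golgi, by -0.01.

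In the endoplasmic reticulum and Golgi group 6 genes were tested, 3 higher and 3 lower, with a median of 0.07. RAB1A, which controls transport from the endoplasmic reticulum to the Golgi, changed by 0.16 to 0.21 at all of its 4 probes, and RAB1B by -0.10 to 0.00 at its 3. RAB2A, of the early secretory pathway, read 0.87, 0.33 and 0.63 against 0.07, 0.19 and 0.14 at its brighter probe. All mix arrays lay below the single culture arrays, with a change of -0.48 ± 0.18 that was -0.80 on slide 1 and -0.31 on slide 2 (limma adjusted p = 0.505, 0.0851 with the slide block). Its other sense probe gave -0.18, the widest disagreement among the genes with several probes. RAB19 and RAB30, of the Golgi, changed by 0.29 and 0.28.

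Of the 7 tested genes of exocytosis and polarised delivery, 2 were higher and 5 lower, with a median of -0.26, and none passed with or without the block. RAB37, which acts in secretory granule release, read -2.73, -2.06 and -2.42 against -2.93, -3.01 and -2.88, with no overlap and a change of -0.54 ± 0.20 (limma adjusted p = 0.499, 0.0742 with the slide block). Its fall was -0.20 on slide 1 and -0.71 on slide 2. RAB13, a RAB of tight junction traffic, read -0.47, -0.82 and -0.59 against -1.25, -0.64 and -1.45. Mix culture replicate 2 lay among the single culture arrays, and the change of -0.49 ± 0.24 had an adjusted p of 0.679 in limma and 0.195 with the slide block. It was -0.72 without mix culture replicate 2 and -0.32 without mix culture replicate 3. RAB10 and RAB12, of basolateral and recycling delivery, changed by -0.26 and -0.28, RAB8A, of apical delivery and cilia, by 0.00, RAB3A by 0.24 and RAB27A by 0.27. The remaining GTPases tested were RAB7L1, now named RAB29, at -0.21, RAB28 at 0.09 and RAB40C at 0.10.

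The 7 partner proteins named after a RAB gave 3 of the 6 probes called with the slide block, out of 12 tested. These 3 probes read only RAB11FIP4, at both of its probes, and RAB3IP, so they do not stand for separate genes. Of all probes 7.2% were called, and of all gene names 7.25% at the brightest probe. Among the partner proteins, RAB11FIP2, RAB11FIP4 and RAB11FIP5 are a family that binds RAB11. RAB11FIP4, a RAB11 effector that also binds the GTPase ARF6, read -0.08, -0.52 and -0.63 in single culture and -0.72, -1.36 and -1.18 in mix culture at its brighter probe, with no overlap. Its other probe, printed above, read -2.25, -1.53 and -1.77 against -2.76, -2.42 and -2.16, where mix culture replicate 3 lay just above single culture replicate 1. The changes were -0.67 ± 0.23 and -0.60 ± 0.25, which is 1.59-fold and 1.51-fold lower, and were alike on the slides, at -0.63 and -0.69 for the brighter probe. The limma adjusted p was 0.442 and 0.556 without a block, 0.0092 and 0.0274 with the slide block, and 0.0222 and 0.0522 with the replicate block. RAB11FIP5, an effector of apical recycling, read 4.82, 4.09 and 3.77 against 4.24, 3.49 and 3.58 and changed by -0.46 and -0.43 at its 2 probes, neither of which passed (0.065 and 0.13 in limma once the slide was a block). RAB11FIP2, which links RAB11 to myosin V, had a higher mean in mix culture. At its brighter probe it read -1.10, -0.82 and -0.73 against -0.37, -0.52 and -0.55, a change of 0.40 ± 0.16 with no overlap. This change did not pass (limma adjusted p = 0.557, 0.104 with the slide block). The dimmer RAB11FIP2 probe changed by 0.16, with overlap between the groups and -0.01 on slide 2 (limma adjusted p = 0.592 with the slide block).

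RAB3IP, also known as Rabin8, read 0.37, 0.05 and 0.33 in single culture and 0.90, 1.28 and 0.87 in mix culture. Every mix array exceeded every single culture array, with a rise of 0.77 ± 0.18 on the log2 scale, which is 1.70-fold, of 0.53 on slide 1 and 0.89 on slide 2. The limma adjusted p was 0.182 without a block, 0.0247 with the slide block and 0.0431 with the replicate block. RAB3IL1, its paralogue, changed by 0.03. RAB3GAP1 and RAB3GAP2, the subunits of a complex that acts on RAB3 and RAB18, changed by -0.10 and -0.15.

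The calls with the slide block were close to the threshold. When each of the 6 arrays was left out in turn under that block, 1 or 2 of the 6 probes were still called. Leaving out replicate 1 of single or of mix culture gave 1 and the same fit. The block then takes up the array left on slide 1, so that fit is slide 2 alone. The brighter RAB11FIP4 probe remained called whichever array was left out, at limma adjusted p of 0.0311 to 0.048. RAB3IP was called only on slide 2 alone and RAB31 only without single culture replicate 2. Both RAB11A probes and the dimmer RAB11FIP4 probe were called in none of them, with adjusted p of 0.072 to 0.182 for the brighter RAB11A probe, although its change stayed between -0.52 and -0.36. Other RAB probes were called in 2 of these fits, those of RAB13 (limma adjusted p = 0.0209) and RAB15 (0.0302) without mix culture replicate 2 and of RAB2A (0.046) without single culture replicate 2.

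**Figure D3:**
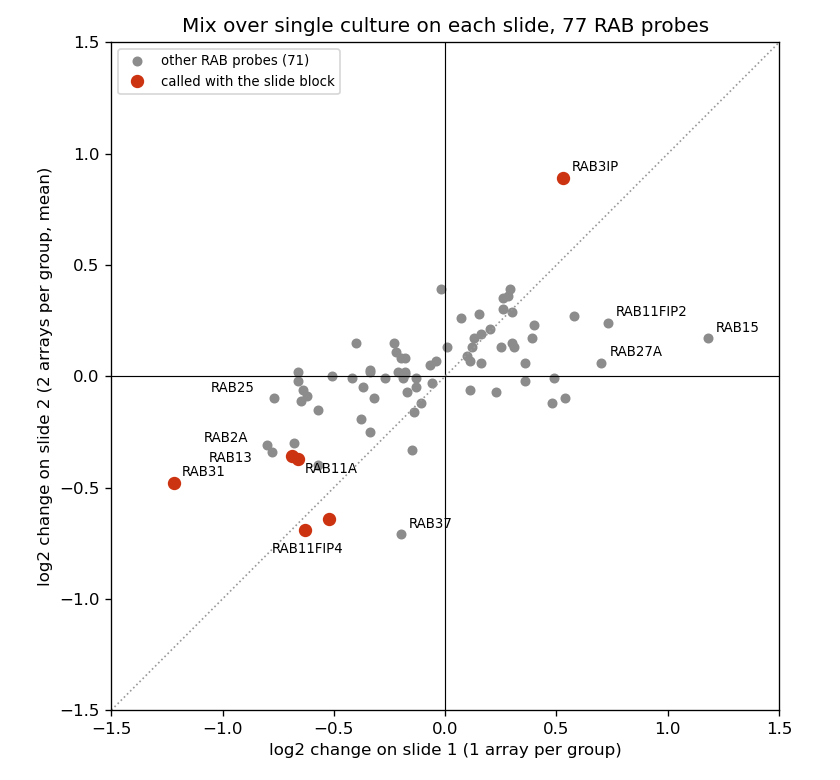
Each point is 1 of 77 RAB probes, with the log2 change of mix over single culture on slide 1 (1 array per group) on the horizontal axis and the mean change on slide 2 (2 arrays per group) on the vertical axis, and the 6 probes called with the slide block in red. The called probes lie away from 0 on both axes, and RAB15, at 1.18 and 0.17, is the probe farthest to the right.

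The groups did not overlap for 16 of the 77 RAB probes (20.8%), against 16.5% of all probes, with 8 higher (10.4% against 7.85%) and 8 lower (10.4% against 8.66%). The higher probes belonged to RAB28, RAB1A, RAB5A, RAB19, RAB11FIP2 and RAB3IP, and the lower ones to RAB11A, RAB10, RAB2A, RAB20, RAB37 and RAB11FIP4. On slide 1 and slide 2 the change had the same sign for 57 RAB probes (74.0%), against 70.7% of all probes. The median over RAB probes was -0.13 on slide 1 and 0.02 on slide 2, against -0.06 and -0.04 over all probes.

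Several probes of 1 gene gave a check on the values within these arrays. Of 25 RAB genes with over 1 probe tested, 22 had all probes changing in the same direction and 21 had probes within 0.2 of each other on the log2 scale. The widest gap was 0.30, for RAB2A. RAB11A, RAB11FIP4, RAB11FIP5, RAB10, RAB12 and RAB4B each had probes within 0.1 of each other, as the plot of probes by gene shows. These probes share the same RNA and arrays, so they are not replicates of the cultures.

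**Figure D4:**
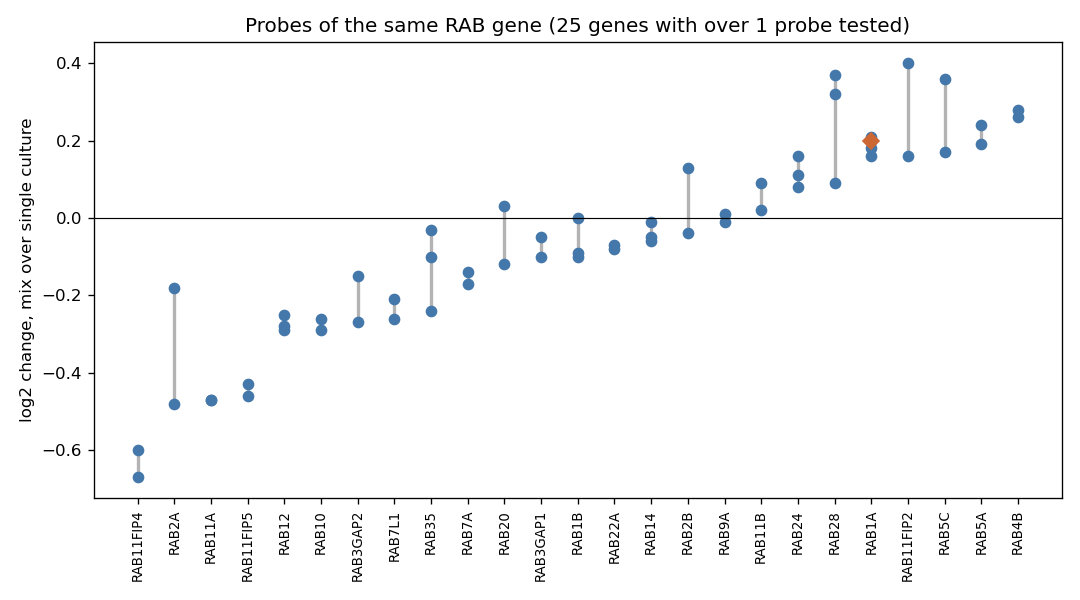
Each column is 1 of 25 RAB genes with over 1 probe tested, ordered by its lowest probe, and each point is the log2 change of 1 probe, mix over single culture, with a grey line joining the probes of a gene. The orange diamond is the RAB1A probe on the opposite strand, at 0.20 among sense probes at 0.16 to 0.21.

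Genes outside the naming rule that serve RABs were read from 5 lists, with 116 genes tested at the brightest probe. Of these, 1 was called without a block, against 0.87% of all gene names, and 7 with the slide block (6.03%, 2 higher and 5 lower), against 7.25%. Their median change was -0.05, and 72 were lower, against 59.7% of all gene names. RABGAP1L, a TBC-domain protein that speeds GTP hydrolysis by RABs, was the 1 gene called without a block. It read 1.24, 1.29 and 1.17 in single culture and 2.62, 2.49 and 2.40 in mix culture, a rise of 1.27 ± 0.15 (limma adjusted p = 0.0108, 0.000439 with the slide block). A second probe read 1.32, 1.19 and 1.19 against 2.62, 2.52 and 2.35, but the other 6 probes of this name were dimmer and changed by -0.19 to 0.69. Leaving out replicate 2 or 3 of either group ended the call at the brightest probe (adjusted p of 0.0548 to 0.096) with the change still at 1.24 to 1.32, and leaving out replicate 1 of either group did not end it. TBC1D15, which acts on RAB7, changed by 0.38 at its brightest probe (limma adjusted p = 0.121 with the slide block). Its dimmer probes changed by 0.14 to 0.23, with overlap between the groups. Of the 22 GTPase-activating proteins tested, 1 was called with the slide block.

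Of 22 exchange factors tested, 17 were lower and 5 higher, where 59.7% of all gene names were lower, and 2 fell with the slide block (9.09%, against 7.25% of all gene names called). DENND4A, an exchange factor for RAB10, changed by -0.89 ± 0.22 (limma adjusted p = 0.187, 0.0122 with the block) and DENND3, an exchange factor for RAB12, by -0.53 ± 0.31 (0.764 and 0.0338). Of 34 effectors, SYTL2, which binds RAB27 on secretory vesicles, rose with the block by 0.70 ± 0.29 (0.55 and 0.0225), and RILPL1, which binds RAB8 and its relatives, changed by -0.49 (0.0511 with the block). Of the 8 escort, GDI and prenylation genes none was called with or without the block in limma, and the 2 with the smallest adjusted p with the block were RABGGTA at 0.25 (0.195) and CHML at 0.33 (0.196). Of 30 coat and scission genes, 23 were lower and 7 higher, beside the 59.7% lower among all gene names, and 3 fell with the slide block (10.0%, against 7.25% called). CAV1, the coat protein of caveolae, read 6.86, 7.02 and 6.92 against 6.29, 6.14 and 6.34, a change of -0.67 ± 0.15 (limma adjusted p = 0.135, 0.0108 with the block). DNM3, a dynamin that cuts vesicles from the membrane, changed by -1.29 ± 0.37 (0.299 and 0.0119). The third was CAV2, the partner of CAV1 in caveolae, named after its values were seen, at -0.47 ± 0.21 (0.618 and 0.0278).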

How the data were processed

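Processed data of 6 single-colour canine arrays were used, 3 of β-cat ΔN/RasV12 cells in single culture and 3 in mix culture. The scanner's Feature Extraction software (versions 11.5.1.1 for slide 1 and 12.1.1.1 for slide 2) made the deposited intensity per spot, the processed signal, by subtracting background and correcting spatial trend. A deposited table gives log2 values by the authors; it was found to be centred per probe within each slide and was used only as an alternative. From the intensities, spots flagged as outliers (5 to 9 per array) and control spots were left out, no spot was saturated, spots of a probe were averaged, and log2 of the processed signal minus that of the array's 75th percentile (161 to 233 units) was taken. The share of spots well above background ran from 61.11% to 65.66%.

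Probes well above background on all arrays of a group (26623) were fitted with limma 3.58.1 (lmFit and eBayes, R 4.3.3), without a block as in the study's unpaired comparison, with Benjamini-Hochberg adjustment over all of them and a threshold of 0.05. The script was tested on simulated data. Alternatives were the slide as a block, the replicate number as a block, slide 2 alone, other filters, other scalings, normexp (offset 50), the methods' test, the deposited table and each array left out. Same-numbered arrays deviated together (correlations of 0.801, 0.530 and 0.572), so the numbers were treated as pairing the arrays, but differently numbered arrays of slide 2 did too (0.610 and 0.632).

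The members and gene lists were chosen with earlier results of these data known. Genes named are those called without a block, those called with the slide block, RAB5A, RAB5B, RAB5C, RAB7A, RAB11A, RAB11B and RAB25, the 4 largest rises and falls, those not detected or detected in 1 group, and per list the genes called without a block and the 2 with the smallest adjusted p with the slide block; RAB20 and the other members are given by role. RefSeq (UU_Cfam_GSD_1.0) held 52 of the 53 names. Probe sequences and CanFam3.1 coordinates are those of the scanner files. No protein table was used here, so a probe was printed where an open reading frame was present, and the frame was not compared with the protein.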

Additional observations from a re-analysis of the deposited data

How the results depend on the processing

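The number of RAB probes called was 0 without a block under 5 other scalings and filters (all-array filter, no filter, quantile, median and normexp), by the methods' test and with each array left out (0 to 0). It was 6 with the slide block, 2 with the replicate block, 3 with the replicate block after replicates 2 and 3 of mix culture were exchanged (added after the data were seen, because the difference between these 2 columns of the deposited table correlates at -0.987 with that of the scanner files, so their numbers are in doubt), 2 on slide 2 alone and 13 in the authors' table, whose values are centred within slides without the fit counting it. For RAB genes at the brightest probe these counts were 0, and 4, 2, 2, 2 and 8, and 0 when the probes of each gene were averaged. With the slide block and an array left out, also added after the data were seen, 1 to 3 probes were called. Leaving out replicate 1 of either group under this block repeats the fit of slide 2 alone. For the genes of the 5 lists the 1 call became 7 with the slide block, 5 with the replicate block, 6 with the exchanged pairing, 5 on slide 2 alone, 15 in the authors' table, 0 by the methods' test, 0 with probes averaged and 0 to 1 with an array left out. RAB probes without overlap numbered 16, 31 in the authors' table and 18 to 24 with an array left out, where fewer arrays overlap less often by construction. Shares over all probes were taken only without a block, with the slide block and with the replicate block. For gene names they were taken only without a block and with the slide block. Under the other settings the counts above have no such share beside them, so they cannot be read as particular to RABs. The median change of RAB probes stayed between -0.05 and 0.02. Of 238 values for 14 named members under the alternatives, 218 kept direction and side of the threshold, 16 passed it and 4 reversed, all with an array left out. RAB11B then ran from -0.07 (without mix culture replicate 1; -0.06 without single culture replicate 3) to 0.28, RAB25 from -0.84 to 0.42 (without mix culture replicate 1) and RAB5C from -0.18 (without mix culture replicate 1) to 0.95. The cause was not tested. RAB27B, RAB3C and RAB38 were too close to background for a fold.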

Other observations

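The naming rule misses probes that carry a transcript name while their description names a RAB. A search of the descriptions found 20 such probes, 19 of them tested, with a median change of -0.03 and a range of -0.81 to 0.46. None was called without a block and 3 were with the slide block in limma, all lower in mix culture, where 7.2% of all probes were called and 3.22% were called lower. These were the RAB31 probe given in the report and probes described as RAB6B, a Golgi RAB of neurons and some epithelia, at -0.52 ± 0.15 (adjusted p = 0.0273) and -0.43 ± 0.23 (0.0463). Of the other probes, 3 described as RAB18, which acts on lipid droplets and the endoplasmic reticulum, changed by 0.19 to 0.25, 1 described as RAB23, of the cilium, by 0.02, and 2 described as RAB32, of melanosomes and mitochondria, by -0.19 and -0.10. A probe described as RAB15 changed by 0.38, with 1.20 on slide 1 and -0.04 on slide 2, the same split between the slides as the RAB15 probe of the naming rule. Both probes of 1 transcript described as a RAB11 family interacting protein changed by 0.46 (adjusted p = 0.0526 with the slide block).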
